A study of Mus musculus with 10 samples.

Results

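The muscle layer of the mouse jejunum was set against that of the colon, each measured as 1 library of unsorted tissue out of the 10 RNA-seq libraries of the series. Levels are in FPKM, fragments scaled to transcript length and to library size, given for each transcript variant. Variants under 0.025 FPKM were set to 0, and the variants of each gene symbol were summed. Of 16623 gene symbols with a level in either tissue, the 12832 that reached 1 FPKM in jejunal tissue, in colonic tissue or in both were compared, as log2 of (jejunum FPKM + 1) over (colon FPKM + 1). Genes at 4-fold or more on that scale were then followed into the sorted libraries of the same organs. With 1 library a side there is no replicate, no difference was tested, and a fold shows how 2 libraries differ.

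The study profiled the cells of the gut muscle to describe what smooth muscle cells (SMCs) express, and the tissue libraries stand beside SMCs, the pacemaker cells of Cajal (interstitial cells of Cajal, ICC) and cells that carry PDGFRα, sorted from each organ, with mucosa from the colon. The labels list jejunal SM tissue and colonic SM tissue as unsorted mixed cells of KitcopGFP/+ mice, strain B6.129S7-Kittm1Rosay/J, in which copGFP marks cells that use the Kit gene and 1 Kit allele is altered. The methods of the study instead describe smMHCCre-eGFP/+ mice for the muscle layers. Sorted SMCs came from smMHCCre-eGFP/+ mice, where the smooth muscle myosin promoter drives eGFP, ICC from KitcopGFP/+ mice, and PDGFRα+ cells and the colonic mucosa from PdgfraeGFP/+ mice. All were 4 weeks old on a C57BL/6 background. PDGFRα+ cells were also sorted from colonic mucosa. Below, sorted libraries are those of the muscle layer, without these mucosal cells, unless they are named. Sorted SMCs were pooled from many animals, and how many gave the tissue is not given in the sources used here. Libraries were made with a TruSeq RNA kit, which is not stated to mark strand. The study gives a range of reads obtained and of the share mapped for its tissue and SMC libraries. The deposited values carry no counts, so the number of reads behind a value is unknown and counting error is not given.

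The muscle layer of the gut holds an inner circular and an outer longitudinal sheet of SMCs, which contract when calcium activates myosin light chain kinase. ICC set the rhythm of electrical slow waves, PDGFRα+ cells and nerve endings modulate the muscle, and enteric ganglia, glia, macrophages, blood and lymph vessels and a serosal mesothelium lie in the same layer. The small intestine arises from midgut and the colon largely from hindgut. Hox genes, transcription factors arranged in 4 clusters, are expressed in nested domains along this axis, with the genes of high paralogue number used in the most posterior parts. A whole-tissue value mixes all of these cells. Fewer cells of a type and less RNA per cell cannot be told apart in it.

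Each tissue carried the defining markers of its layer. *Myh11*, the smooth muscle myosin heavy chain, was at 3370.4 FPKM in jejunal tissue, against 3168 FPKM in colonic tissue. *Ano1*, a chloride channel that marks ICC, had 67.5 FPKM in jejunal against 71.4 FPKM in colonic tissue, and *Csf1r*, the growth factor receptor of macrophages, at 13.5 FPKM in jejunal against 12.1 FPKM in colonic tissue. *Epcam*, the surface protein of epithelium, was at 0.643 FPKM in jejunal against 7.86 FPKM in colonic tissue, low beside muscle markers and not equal in the tissues. The total of all genes was 333574 FPKM in jejunal tissue and 326912 FPKM in colonic tissue, and 14 ubiquitous genes had a median log2 ratio of 0.12. The library labelled jejunal PDGFRα+ cells went against its label in *Pdgfra*. Its *Pdgfra* was 34 FPKM, 0.597 times the level of jejunal tissue, and its *Myh11* was 1677 FPKM. The colonic PDGFRα+ library had 229.9 FPKM of *Pdgfra*, 4.85 times colonic tissue, and 134 FPKM of *Myh11*. Other markers of these cells were mixed in the jejunal library, with *Kcnn3* at 0.901 and *P2ry1* at 1.96 times jejunal tissue. In the colonic library they were at 9.99 and 7.57 times colonic tissue. Counts that rest on that pair of libraries are therefore given apart, and with and without it.

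The tissues were alike in most genes. Of the 12832 genes, 12287 or 95.8% lay within 2-fold, and the median log2 ratio was −0.05. In all, 33 genes were 4-fold or more higher in jejunal tissue, 0.257% of those compared, and 79 were 4-fold or more lower, 0.616%. At 2-fold the numbers were 176 higher (1.37%) and 369 lower (2.88%). Among the 6118 genes with 10 FPKM or more in a tissue, 25 were 4-fold higher and 46 lower. The 20 genes with a mean level above 1000 FPKM held none at 4-fold, with log2 ratios from −1.01 to 1.12. In jejunal tissue 14 lower genes were listed at 0, and 1 higher gene, *Reg3b*, was listed so in colonic tissue, while none of 14 ubiquitous genes was at 0 in either. Just inside the threshold lay *Hspa2* at 2.04 and *Ctla2a* at −2.04, and just outside it *Grm8*, at 3.48 FPKM in jejunal against 0.16 FPKM in colonic tissue, and *Scara5*, at 1.03 FPKM in jejunal against 7.1 FPKM in colonic tissue.

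**Figure D1:**
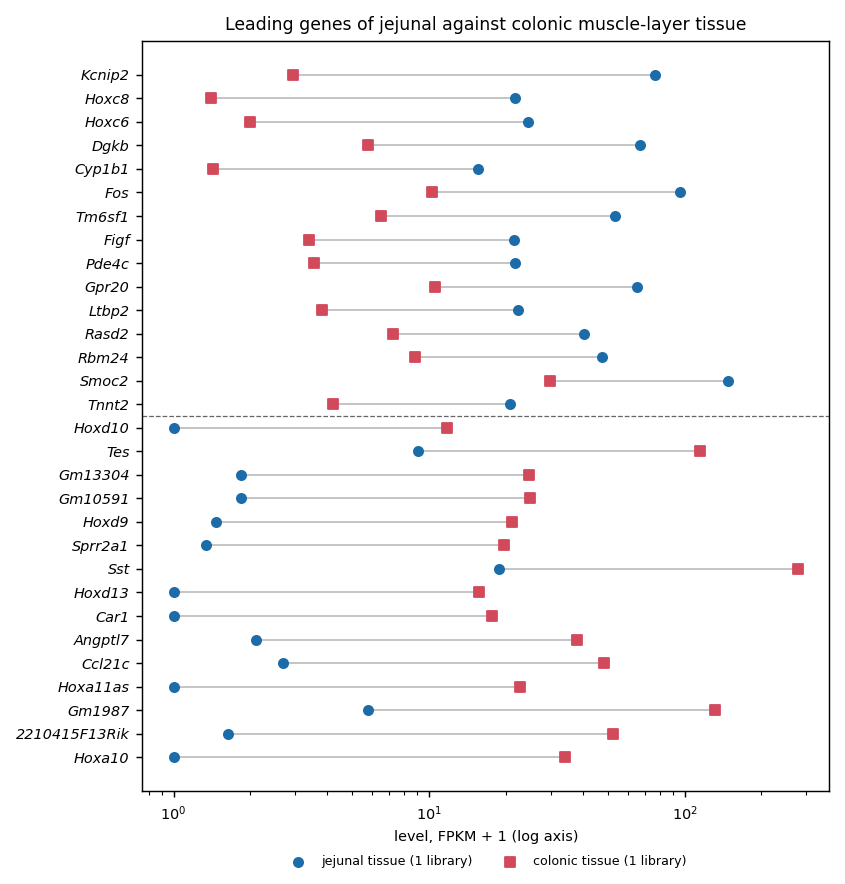
Levels of the 15 genes with the largest log2 ratio each way among genes with 10 FPKM or more in a tissue library, as FPKM + 1 on a log axis. Circles are jejunal tissue and squares colonic tissue, 1 library each. *Kcnip2* heads the higher genes at 75.9 FPKM in jejunal against 1.95 FPKM in colonic tissue, and *Hoxa10* ends the lower genes at 0 in jejunal against 33.1 FPKM in colonic tissue.

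The largest ratio on the higher side was that of a potassium channel subunit. *Kcnip2*, a calcium-binding subunit of A-type potassium channels (mm9 chr19:45866329-45890551, minus strand), was at 75.9 FPKM in jejunal tissue, against 1.95 FPKM in colonic tissue, a log2 ratio of 4.71. Among sorted cells it was highest in SMCs, with 82.8 FPKM in jejunal SMCs and 7.73 FPKM in colonic SMCs. *Dgkb*, a diacylglycerol kinase, was at 66 FPKM in jejunal tissue, against 4.75 FPKM in colonic tissue (log2 3.54). *Cyp1b1*, a cytochrome P450, was at 14.5 FPKM in jejunal against 0.431 FPKM in colonic tissue, and *Figf*, the growth factor VEGF-D of lymphatic vessels, at 20.5 FPKM in jejunal against 2.39 FPKM in colonic tissue. In these 4 genes the jejunal tissue and the jejunal SMC library were close, within 1.5 times of each other, and both stood above the colonic pair. *Tm6sf1*, a membrane protein, was higher in jejunal SMCs, at 85.5 FPKM, than in jejunal tissue, at 52.3 FPKM, against 5.24 and 5.48 FPKM in colonic SMCs and tissue. Much of it lay in variants outside the known set, without which its log2 ratio was 1.23, against 3.04 with all variants.

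Several of the higher genes are known from heart and skeletal muscle. *Tnnt2*, cardiac troponin T, was at 19.8 FPKM in jejunal tissue, against 3.2 FPKM in colonic tissue, and at 231 FPKM in jejunal SMCs and 39.8 FPKM in colonic SMCs, so that the sorted cells exceeded tissue in either organ and the organ ratio was similar, log2 2.31 in tissue and 2.51 in SMCs. *Rbm24*, a splicing regulator of striated muscle, was at 46.5 FPKM in jejunal against 7.84 FPKM in colonic tissue. *Casq2*, the calcium-storing cardiac calsequestrin, was at 19.6 FPKM in jejunal against 3.89 FPKM in colonic tissue and *Myh7*, a slow myosin heavy chain, at 5.56 FPKM in jejunal against 0.772 FPKM in colonic tissue, just under 4-fold. Other sarcomere genes lay on the colonic side. *Actc1*, cardiac α-actin, was at 0.341 FPKM in jejunal tissue, against 5.92 FPKM in colonic tissue, and at 1.32 FPKM in jejunal against 29.2 FPKM in colonic SMCs. *Acta1*, skeletal α-actin, was at 7.15 FPKM in jejunal against 25.3 FPKM in colonic tissue and *Myl4*, an atrial light chain, at 2.83 FPKM in jejunal against 11.3 FPKM in colonic tissue. Of 13 striated muscle genes compared, 1 was 4-fold higher and 1 lower, beside 0.257% and 0.616% of all genes. Their median was 0.02, which turned to −0.67 with variants under 1 FPKM set to 0.

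The contractile machinery itself differed less. The study chose 13 contractile markers with these cells in view, and the list is therefore no independent evidence of a direction. Of them none reached 4-fold, 7 were above 0 and 6 below, and the median was 0.02 (−0.0129 with the jejunal library scaled to the colonic total). In the SMC pair 3 were above 0 and 10 below, with a median of −0.37, where the median of all genes was 0.11. *Mylk*, the kinase that starts contraction, was at 2947 FPKM in jejunal tissue, against 1360.1 FPKM in colonic tissue, the largest FPKM difference of any gene in favour of jejunum and the sole 2-fold difference in the list. It was also higher in jejunal SMCs, with 3239 FPKM in jejunal against 2058 FPKM in colonic SMCs. *Myl9* and *Myl6*, myosin light chains, were at 3597 FPKM in jejunal against 2519 FPKM in colonic tissue and 4694 FPKM in jejunal against 3538 FPKM in colonic tissue. Their SMC libraries were closer, with *Myl9* at 5674 FPKM in jejunal against 5463 FPKM in colonic SMCs. *Myl6* was at 6407 FPKM in jejunal against 6131 FPKM in colonic SMCs. *Tagln*, transgelin, had the largest FPKM difference the other way, 2661 FPKM in jejunal against 4515 FPKM in colonic tissue, followed by *Actg2*, the γ-actin of visceral muscle, at 4891 FPKM in jejunal against 6296 FPKM in colonic tissue and *Cnn1*, calponin, at 1270.1 FPKM in jejunal against 2278 FPKM in colonic tissue. The SMC libraries went the same way in each of these 3 genes, with *Cnn1* at 2495 FPKM in jejunal against 5412 FPKM in colonic SMCs. *Fhl1*, a LIM protein of muscle, was at 126 FPKM in jejunal against 424 FPKM in colonic tissue and *Itga8*, an integrin subunit, at 5.45 FPKM in jejunal against 19.6 FPKM in colonic tissue. Among 25 other smooth muscle genes none was 4-fold apart, and the median was 0.22.

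Transcript variants also differed between the organs. Of 44 contractile, other smooth muscle and called genes with 10 FPKM or more in both tissues, 4 had a variant whose share of the gene differed by 10 percentage points or more. In *Myh11* the known variant TCONS_00105099, of 6593 bases, made up 26.5% in jejunal tissue and 46.2% in colonic tissue, and 2.93% in jejunal SMCs and 22.7% in colonic SMCs. The organ gap was thus −19.7 points in tissue and −19.8 points in SMCs, while the gene sums were 3370.4 FPKM in jejunal against 3168 FPKM in colonic tissue. The other 3 genes were *Synpo2*, *Smtn* and *Dmd*, with shifts of 14.9, 13.0 and −10.3 points. Each went the same way in SMCs, by at least 4 points.

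Hox genes split by position. All 5 posterior Hox genes at 4-fold were lower in jejunum. *Hoxa10* (mm9 chr6:52181196-52190853, minus strand) was listed at 0 in jejunal tissue and at 33.1 FPKM in colonic tissue, *Hoxd13* at 0 in jejunal against 14.7 FPKM in colonic tissue, and *Hoxd10* at 0 in jejunal against 10.8 FPKM in colonic tissue. *Hoxd9* was at 0.464 FPKM in jejunal against 20.1 FPKM in colonic tissue and *Hoxa9* at 0.0396 FPKM in jejunal against 4.83 FPKM in colonic tissue. Colonic ICC held more of these 5 transcripts than colonic tissue or SMCs, with *Hoxa10* at 161 FPKM in colonic ICC and 32.5 FPKM in colonic SMCs, and *Hoxd9* at 139 FPKM in colonic ICC and 13.1 FPKM in colonic SMCs. Jejunal SMCs had 0.0343 FPKM and jejunal ICC 0.976 FPKM of *Hoxa10*. The noncoding *Hoxa11as* was at 0 in jejunal against 21.7 FPKM in colonic tissue, and *Hoxa11*, on the opposite strand, at 0 in jejunal against 2.86 FPKM in colonic tissue. Reads of these overlapping genes cannot be told apart without strand, and with known variants alone the log2 ratio of *Hoxa11as* was −1.77, under 4-fold. *Hoxb13* was at 0 in jejunal and 1.81 FPKM in colonic tissue, at 0 in either SMC library, and at 90.9 FPKM in colonic mucosa, unlike *Hoxd13*, which was at 13.6 FPKM there and at 17.6 FPKM in colonic SMCs.

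The central genes of the c and b clusters went the other way. *Hoxc8* (mm9 chr15:102821053-102824698, plus strand) was at 20.7 FPKM in jejunal tissue, against 0.396 FPKM in colonic tissue, and *Hoxc6* at 23.3 FPKM in jejunal tissue, against 0.99 FPKM in colonic tissue. *Hoxc5* was at 5.02 FPKM in jejunal against 0.0836 FPKM in colonic tissue, *Hoxb8* at 6.2 FPKM in jejunal against 0.594 FPKM in colonic tissue and *Hoxb7* at 9.21 FPKM in jejunal against 1.4 FPKM in colonic tissue. Jejunal tissue, SMCs and ICC held similar levels of *Hoxc8*, with 19 FPKM in SMCs and 21.4 FPKM in ICC. Paralogue number alone did not sort the genes. *Hoxc9*, counted as posterior, was at 1.56 FPKM in jejunal against 0.348 FPKM in colonic tissue, while *Hoxd4* and *Hoxd8*, of lower number, were lower in jejunum at 1.47 FPKM in jejunal against 5.63 FPKM in colonic tissue and 2.36 FPKM in jejunal against 7.79 FPKM in colonic tissue, as were all *Hoxd* genes compared. Of 10 posterior Hox genes compared, beside 0.257% of all genes higher and 0.616% lower, none was 4-fold higher and 5 were 4-fold lower (9 at 2-fold), with a median of −2.24. Of 18 anterior and central genes, 5 were higher and none lower (8 and 2 at 2-fold), with a median of 0.64. Summed levels of the posterior list were 2.45 FPKM in jejunal tissue and 94.8 FPKM in colonic tissue. *Hoxc9* made up 1.56 FPKM of the jejunal sum. The other posterior genes thus reached the 1 FPKM needed for comparison in colonic tissue alone, and that filter fixed their sign. *Hoxc8*, *Hoxc6*, *Hoxc5* and *Hoxb8* likewise reached it in jejunal tissue alone. The counts and medians of the Hox lists are therefore no separate evidence of direction.

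**Figure D2:**
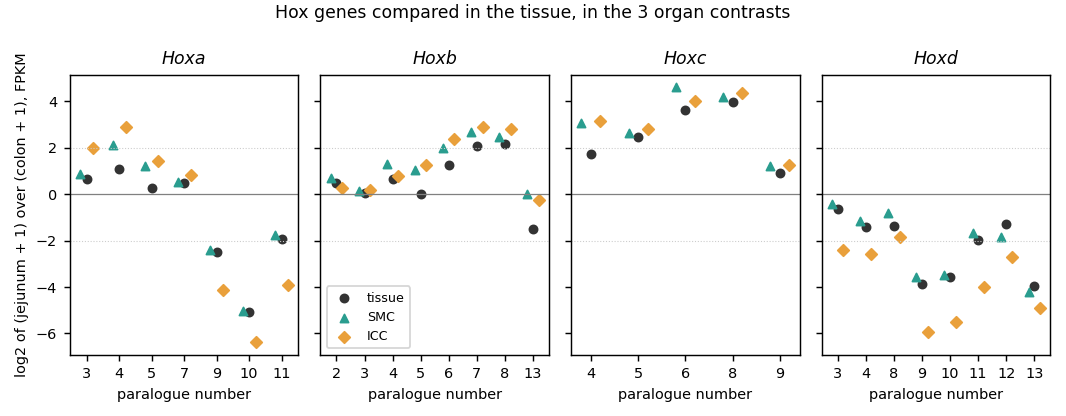
Log2 of (jejunum FPKM + 1) over (colon FPKM + 1) for the compared Hox genes of the a, b, c and d clusters, ordered by paralogue number. Circles are the tissue pair, triangles the SMC pair and diamonds the ICC pair, 1 library a side. The c cluster lies above 0 and the d cluster below 0 throughout, and the a and b clusters cross in tissue from above to below with rising number.

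Other regional transcription factors differed in the same libraries. *Pitx1*, a homeobox factor known from the hindlimb, was listed at 0 in jejunal tissue and 6.99 FPKM in colonic tissue, *Six2*, another homeobox factor, at 0 in jejunal against 6.11 FPKM in colonic tissue, and *Evx2*, which lies beside the Hoxd cluster, at 0 in jejunal against 1.51 FPKM in colonic tissue. Colonic SMCs carried 23.4 FPKM of *Pitx1* and 14.8 FPKM of *Six2*, both above tissue. *Hand1*, a bHLH factor of gut mesenchyme, was at 81 FPKM in jejunal against 24.2 FPKM in colonic tissue, and *Irx3* and *Irx5* were at 1.83 FPKM in jejunal against 0.0541 FPKM in colonic tissue and 1.23 FPKM in jejunal against 0 in colonic tissue, with 23.9 and 17.7 FPKM in jejunal ICC. Factors shared along the gut differed little, *Nkx2-3* at 25.4 FPKM in jejunal against 25.5 FPKM in colonic tissue and *Foxf1a* at 65.3 FPKM in jejunal against 52 FPKM in colonic tissue. Of 22 such factors compared, none was 4-fold higher and 2 were 4-fold lower, beside 0.616% of all genes, and the median was 0.14.

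A second set of higher genes was carried by ICC. *Pde4c*, a phosphodiesterase of cyclic AMP, was at 20.7 FPKM in jejunal tissue, against 2.53 FPKM in colonic tissue, and at 901 FPKM in jejunal ICC and 55.3 FPKM in colonic ICC. *Rasd2*, a Ras-like GTPase, was at 39.3 FPKM in jejunal against 6.2 FPKM in colonic tissue and at 328 FPKM in jejunal ICC and 2.96 FPKM in colonic ICC. *Sctr*, the secretin receptor, was at 5.42 FPKM in jejunal against 0.287 FPKM in colonic tissue and at 102 FPKM in jejunal against 0.52 FPKM in colonic ICC. In each of these 3 genes the ICC libraries were further apart than the tissues, and jejunal ICC stood well above jejunal tissue. *Hcn4*, a pacemaker channel opened by hyperpolarization, was at 8.33 FPKM in jejunal tissue, against 0.445 FPKM in colonic tissue, and at 39.1 FPKM in jejunal ICC and 0.0905 FPKM in colonic ICC. With known variants alone its tissue log2 ratio was 1.77, against 2.69 with all. *Gpr20*, an orphan G protein-coupled receptor, was at 63.9 FPKM in jejunal against 9.59 FPKM in colonic tissue, *Rgs10*, which shortens G protein signals, at 90.9 FPKM in jejunal against 17.7 FPKM in colonic tissue, and *Pcdh17*, a protocadherin, at 13.1 FPKM in jejunal against 2.35 FPKM in colonic tissue. In ICC *Gpr20* was at 556 FPKM in jejunal against 114 FPKM in colonic ICC, *Rgs10* at 729 FPKM in jejunal against 36 FPKM in colonic ICC and *Pcdh17* at 89.9 FPKM in jejunal against 3.79 FPKM in colonic ICC. The markers of ICC themselves were not 4-fold apart, with *Kit* at 29.4 FPKM in jejunal against 41.4 FPKM in colonic tissue, *Ano1* at the levels given above, *Etv1* at 32.1 FPKM in jejunal against 39.9 FPKM in colonic tissue and *Thbs4* at 23.1 FPKM in jejunal against 13.7 FPKM in colonic tissue. Of 8 ICC genes compared 1, *Hcn4*, was 4-fold higher, beside 0.257% of all genes.

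Genes carried by colonic ICC mirrored this on the lower side. *Gdf7*, a BMP family ligand (mm9 chr12:8304740-8308760, minus strand), was listed at 0 in jejunal tissue and at 10.6 FPKM in colonic tissue. Colonic ICC had 128 FPKM of it and jejunal ICC 0.542 FPKM, while colonic SMCs had 0.728 FPKM. *Fst*, follistatin, which binds activins and BMPs, was at 0.636 FPKM in jejunal tissue, against 16.9 FPKM in colonic tissue, and at 0.429 FPKM in jejunal ICC and 72.4 FPKM in colonic ICC. *Rprm*, a p53-induced cell cycle inhibitor, was at 1.79 FPKM in jejunal against 20.6 FPKM in colonic tissue and at 1.31 FPKM in jejunal against 221 FPKM in colonic ICC. *Glp2r*, the receptor of the gut hormone GLP-2, was at 1.14 FPKM in jejunal against 9.51 FPKM in colonic tissue and at 9.49 FPKM in jejunal ICC and 16.9 FPKM in colonic ICC. Its ICC libraries were under 2-fold apart (log2 −0.77). Its SMC libraries were further apart, at 0.335 FPKM in jejunal against 6.01 FPKM in colonic SMCs (log2 −2.39). Secreted BMP antagonists were on either side. *Grem1* was at 141 FPKM in jejunal against 50.7 FPKM in colonic tissue and *Nog*, noggin, at 10.9 FPKM in jejunal against 3.8 FPKM in colonic tissue, both higher in jejunum, whereas *Chrdl2* was at 1.24 FPKM in jejunal against 11 FPKM in colonic tissue. Of 20 BMP ligands and antagonists compared, none was 4-fold higher and 3 were 4-fold lower, beside 0.616% of all genes. Their median was −0.28.

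Genes highest in SMCs among the sorted libraries of the colonic muscle layer made up the next set. *Angptl7*, a secreted angiopoietin-like protein (mm9 chr4:147869292-147874569, minus strand), was at 1.11 FPKM in jejunal tissue, against 36.8 FPKM in colonic tissue (log2 −4.17). It was at 0.177 FPKM in jejunal SMCs and 25.2 FPKM in colonic SMCs, and no higher than 2.61 FPKM in the other colonic sorted libraries. *Tes*, testin, a LIM protein of focal adhesions, was at 8.04 FPKM in jejunal tissue, against 114 FPKM in colonic tissue, and at 3.54 FPKM in jejunal SMCs and 100.4 FPKM in colonic SMCs. *Igfbp2*, an insulin-like growth factor binding protein, was at 13.2 FPKM in jejunal against 76.1 FPKM in colonic tissue and at 108 FPKM in jejunal against 272 FPKM in colonic SMCs. *Krt17*, a keratin, was at 2.12 FPKM in jejunal against 24.8 FPKM in colonic tissue and at 40.1 FPKM in jejunal against 95.1 FPKM in colonic SMCs. For *Igfbp2* and *Krt17* jejunal SMCs also exceeded jejunal tissue. Their SMC pairs were under 4-fold apart, at log2 −1.32 and −1.22, against −2.44 and −3.05 in tissue. *Kcnip4*, a relative of *Kcnip2*, was at 2.75 FPKM in jejunal against 20.5 FPKM in colonic tissue and 0.424 FPKM in jejunal against 12 FPKM in colonic SMCs, so that the pair of channel subunits went opposite ways. *Kcnip1* lay with *Kcnip4*, at 7.82 FPKM in jejunal against 17.1 FPKM in colonic tissue. The A-type channel subunits that they modulate differed less, *Kcnd3* being at 7.26 FPKM in jejunal against 10.5 FPKM in colonic tissue and *Kcnd2* at 2.48 FPKM in jejunal against 3.12 FPKM in colonic tissue.

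Receptors of gut peptides stood among these muscle genes. *Ppyr1*, the receptor of pancreatic polypeptide, was at 2.63 FPKM in jejunal tissue, against 28.1 FPKM in colonic tissue, and at 2.39 FPKM in jejunal SMCs and 47.6 FPKM in colonic SMCs. *Cckar*, the cholecystokinin receptor, was at 1.59 FPKM in jejunal against 14.9 FPKM in colonic tissue and 0.266 FPKM in jejunal against 12.5 FPKM in colonic SMCs. *Agtr1a* and *Agtr2*, angiotensin receptors, were at 6.32 FPKM in jejunal against 16.3 FPKM in colonic tissue and 0.332 FPKM in jejunal against 4.29 FPKM in colonic tissue. *P2ry1*, a purinergic receptor of PDGFRα+ cells, was at 3.62 FPKM in jejunal against 14.6 FPKM in colonic tissue, with 111 FPKM in the colonic PDGFRα+ library. Receptors higher in jejunum were *Galr2*, a galanin receptor, at 41.2 FPKM in jejunal against 11.6 FPKM in colonic tissue, *Chrm2*, the M2 muscarinic receptor, at 119 FPKM in jejunal against 46.7 FPKM in colonic tissue, and *Adrb3*, the β3-adrenoceptor, at 15.2 FPKM in jejunal against 6.06 FPKM in colonic tissue. The other muscarinic receptor of muscle, *Chrm3*, was at 2.68 FPKM in jejunal against 5.75 FPKM in colonic tissue. Of 60 receptors of transmitters and hormones compared, a list without *Ppyr1*, none was 4-fold higher, beside 0.257% of all genes. In that list 2, *Cckar* and *Glp2r*, were 4-fold lower, beside 0.616% of all genes. At 2-fold 7 were higher and 7 lower, beside 1.37% and 2.88% of all genes, and the median was −0.25.

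Ion channels were mostly similar. None of 34 potassium channel genes, a list without *Kcnip2* and *Kcnip4*, reached 4-fold, and the median was −0.07. *Kcnj8* and *Abcc9*, which form the KATP channel of muscle, were higher together in jejunum, at 86.9 FPKM in jejunal against 42.1 FPKM in colonic tissue and 153 FPKM in jejunal against 74 FPKM in colonic tissue. *Kcnk2*, a stretch-activated leak channel, was at 2.04 FPKM in jejunal against 6.08 FPKM in colonic tissue. Of 41 calcium, chloride, sodium and cation channel genes, *Hcn4* was 4-fold higher, beside 0.257% of all genes, and the median was −0.06. *Trpc4*, a cation channel linked to receptors, was at 15.1 FPKM in jejunal against 5.36 FPKM in colonic tissue and at 16 FPKM in jejunal against 3.97 FPKM in colonic SMCs. *Cacna1c*, the L-type calcium channel of muscle, was at 29.8 FPKM in jejunal against 24.6 FPKM in colonic tissue. *Gja1*, connexin 43, was at 212 FPKM in jejunal against 72.9 FPKM in colonic tissue and at 91 FPKM in jejunal against 9.94 FPKM in colonic SMCs, whereas its level was 839 FPKM in jejunal against 962 FPKM in colonic ICC.

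The rest of the higher genes had varied roles. *Ssfa2*, named as a sperm-specific antigen, was at 302 FPKM in jejunal tissue, against 66.1 FPKM in colonic tissue, the highest level among them, and at 220.2 FPKM in jejunal SMCs and 47.3 FPKM in colonic SMCs. *Smoc2*, a secreted calcium-binding matrix protein, was at 147 FPKM in jejunal against 28.6 FPKM in colonic tissue, 164 FPKM in jejunal against 33.8 FPKM in colonic SMCs and 157 FPKM in jejunal against 6.22 FPKM in colonic ICC. *Maob*, the monoamine oxidase B, was at 105 FPKM in jejunal against 23.9 FPKM in colonic tissue, *Hspa2*, a heat shock protein, at 110.0 FPKM in jejunal against 26 FPKM in colonic tissue, and *Car14*, a membrane carbonic anhydrase, at 19.7 FPKM in jejunal against 3.94 FPKM in colonic tissue. *Ralgps2*, a guanine exchange factor, was at 22.1 FPKM in jejunal against 3.79 FPKM in colonic tissue and *Tmem215* at 6.3 FPKM in jejunal against 0.135 FPKM in colonic tissue. *Frem1*, a basement membrane protein, was at 7.58 FPKM in jejunal against 0.871 FPKM in colonic tissue and 38.5 FPKM in jejunal against 2.19 FPKM in colonic ICC. *Ltbp2*, a matrix protein of the latent TGFβ binding family, was at 21.2 FPKM in jejunal against 2.81 FPKM in colonic tissue, and its ICC libraries lay the other way, with 3.11 FPKM in jejunal against 13.1 FPKM in colonic ICC.

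Lower genes outside the groups above differed in which colonic library held them. *Clvs2*, clavesin 2, was at 0.438 FPKM in jejunal against 7.58 FPKM in colonic tissue and at 0.218 FPKM in jejunal ICC and 36.3 FPKM in colonic ICC. *Adamts19*, a secreted metalloprotease, was at 0.47 FPKM in jejunal against 6.95 FPKM in colonic tissue and 2.77 FPKM in jejunal against 25.5 FPKM in colonic ICC. *Fgf10*, a mesenchymal growth factor of gut and lung development, was at 0 in jejunal against 4.44 FPKM in colonic tissue, with 4.01 FPKM in colonic SMCs and 5.67 FPKM in colonic ICC. These 3 were present in SMCs and ICC of the colon and nearly absent from jejunal SMCs, at 0.396, 0.497 and 0 FPKM. *Diras2*, a Ras-like GTPase, was at 3.2 FPKM in jejunal against 16.5 FPKM in colonic tissue and 5.61 FPKM in jejunal against 29.9 FPKM in colonic SMCs. *Gcom1* was at 1.71 FPKM in jejunal against 11.8 FPKM in colonic tissue, *Vav3*, a guanine exchange factor, at 1.77 FPKM in jejunal against 10.7 FPKM in colonic tissue, and *Atp12a*, a proton pump, at 0.0887 FPKM in jejunal against 4.45 FPKM in colonic tissue. *Lbp*, which binds bacterial lipopolysaccharide, was at 1.22 FPKM in jejunal against 11.6 FPKM in colonic tissue and *Retnla*, a secreted resistin-like protein, at 2.45 FPKM in jejunal against 27.8 FPKM in colonic tissue. No sorted colonic library exceeded 1.74 FPKM of *Retnla*. No sorted library of the colonic muscle layer held as much as 1 FPKM of *Slc45a3* or *2610017I09Rik* either. The PDGFRα+ cells sorted from mucosa held 2.67 FPKM of *Slc45a3*. *Ctla2a*, *Slc45a3* and *2610017I09Rik* were at 3.57 FPKM in jejunal against 17.8 FPKM in colonic tissue, 0.37 FPKM in jejunal against 5.12 FPKM in colonic tissue and 0.0731 FPKM in jejunal against 5.51 FPKM in colonic tissue.

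Counted over all called genes, the sorted library with the highest level was SMCs for 15, ICC for 14 and the library labelled PDGFRα+ cells for 4 of the 33 genes higher in jejunum. For the 79 lower genes, taken in the colonic muscle-layer libraries, these numbers were 16, 43 and 20. Without the PDGFRα+ libraries they were 18 and 15 for SMCs and ICC on the higher side, and 22 and 57 on the lower side. Without the genes 10-fold or more higher in colonic mucosa, the highest library was SMCs for 14, ICC for 13 and the PDGFRα+ library for 3 of 30 higher genes, and for 16, 19 and 15 of 50 lower genes. In 9 of the 33 higher genes and 52 of the 79 lower genes tissue exceeded every sorted muscle-layer library of its organ, and in 1 and 42 of them by 2-fold or more. Neither kind of count was made over all genes compared, so whether the called genes differ from the rest in this was not tested. Some of the 43 were low in colonic ICC, such as *Oit1* at 0.822 FPKM and *Muc13* at 0.714 FPKM.

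The sorted pairs are separate libraries, although they share the deposited tables of each organ with the tissues. Of the 33 higher genes, 20 were 4-fold or more higher in jejunal SMCs, where 0.327% of all compared genes were, and 31 were 2-fold higher (1.98% of all). All 33 lay above 0 in SMCs, as did 67.3% of all genes. In ICC 21 of the 33 were 4-fold higher (1.47% of all), 26 were 2-fold higher (5.31% of all) and 30 lay above 0 (39.2% of all). In both pairs 14 were 4-fold higher, and in SMCs, ICC or both 27 were.

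Of the 79 lower genes, 28 were 4-fold lower in jejunal SMCs (0.491% of all compared genes), 37 were 2-fold lower (2.01% of all) and 58 lay below 0 (32.6% of all). In ICC 22 were 4-fold lower (2.04% of all), 37 were 2-fold lower (6.73% of all) and 72 lay below 0 (60.8% of all). In SMCs, ICC or both, 35 of the 79 were 4-fold lower. The library labelled jejunal PDGFRα+ cells, set against the colonic one, was 4-fold higher in 19 of the 33 (4.92% of all), 2-fold higher in 31 (15.4%) and above 0 in 32 (51.7%). It was 4-fold lower in 10 of the 79 (1.73% of all), 2-fold lower in 16 (8.97%) and below 0 in 22 (48.3%), and 39 of the 79 lay 2-fold or more the other way.

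**Figure D3:**
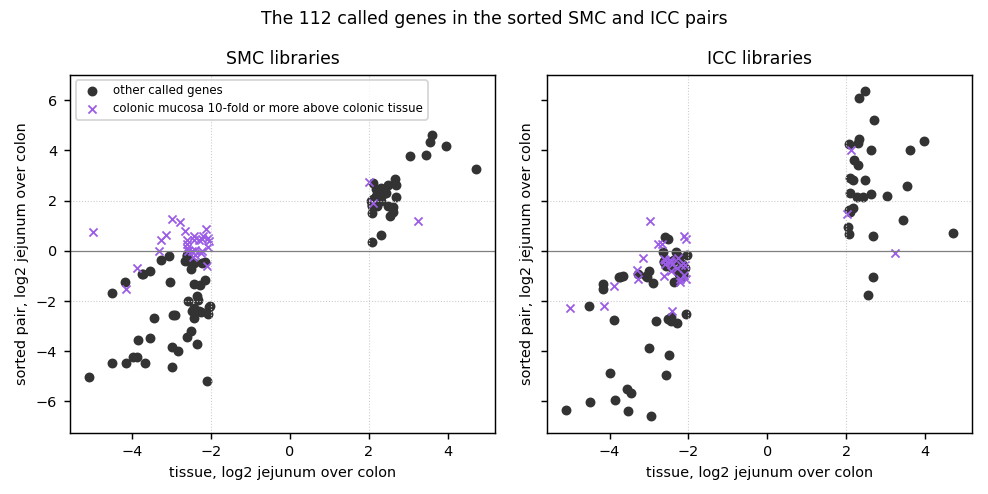
Log2 ratios of jejunum over colon for the 112 called genes, in tissue on the horizontal axis and in the sorted SMC pair (left) or ICC pair (right) on the vertical axis, with dotted lines at 4-fold. Crosses are genes 10-fold or more higher in colonic mucosa than in colonic tissue. On the lower side the crosses lie near 0 in SMCs, where none of 29 reached 4-fold, and 28 of the 50 others did.

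Genes of the mucosa were higher in colonic tissue than in nearly all sorted libraries of the colonic muscle layer. *Car1*, a carbonic anhydrase of colonocytes, was listed at 0 in jejunal tissue and at 16.7 FPKM in colonic tissue, and was at 1438 FPKM in colonic mucosa. *2210415F13Rik* had the second largest ratio of the lower genes, at 0.64 FPKM in jejunal against 51.4 FPKM in colonic tissue, and the highest mucosal level of them, 4563 FPKM. *Zg16*, a lectin of goblet cells, was at 2.12 FPKM in jejunal tissue, against 23.7 FPKM in colonic tissue, and at 2107 FPKM in mucosa. *Muc2*, the secreted mucin, was at 0.791 FPKM in jejunal against 7.35 FPKM in colonic tissue and at 3301 FPKM in mucosa. In all, 29 of the 79 lower genes were 10-fold or more higher in colonic mucosa than in colonic tissue, against 1.86% of all genes compared. Their level in colonic tissue was 3.22 to 51.4 FPKM and in mucosa 293 to 4563 FPKM, so that colonic tissue held a median of 1.12% and jejunal tissue 0.0208% of the mucosal level. The other genes of this group were *Sprr2a1*, *Saa1*, *Spink3*, *Spink4*, *Lgals4*, *Dmbt1*, *Klk1*, *1810030J14Rik*, *Muc13*, *Pigr*, *Sval1*, *Epcam*, *Gsdmc4*, *Clca3*, *Tgm3*, *Prss32*, *Tff3*, *Tspan1*, *Phgr1*, *Fcgbp*, *Guca2a*, *Oit1*, *Sycn*, *Cldn7* and *Adh1*. In 28 of the 29, all but *Adh1*, colonic tissue exceeded every sorted library of the colonic muscle layer. The PDGFRα+ cells sorted from mucosa held more than colonic tissue, with *Muc2* at 704 FPKM and *Saa1* at 71.8 FPKM. Without these genes 50 lower genes remained, of which 28 were 4-fold lower in jejunal SMCs and 19 in jejunal ICC. Of the 50, 24 were higher in colonic tissue than in every sorted library of the colonic muscle layer.

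Lists of epithelial markers share members with this group, *Epcam* and *Cldn7* in the general list and 7 genes in the colonic one, and so are not separate from it. The 10 general epithelial genes had 2 at 4-fold lower, 9 below 0 and a median of −1.52, and their summed level was 19.9 FPKM in jejunal tissue and 58.4 FPKM in colonic tissue. The 13 colonic epithelial genes compared had 7 at 4-fold lower and a median of −2.12, with sums of 28.8 FPKM in jejunal tissue and 107 FPKM in colonic tissue. Of all genes compared, 0.257% were 4-fold higher, 0.616% were 4-fold lower and 57.8% were below 0. Genes of the small-intestinal epithelium, 9 of 26 compared, had a median of 1.16 and 1 gene 4-fold higher, *Reg3b*, an antimicrobial lectin at 3.03 FPKM in jejunal against 0 in colonic tissue. *Vil1*, villin, was at 0.23 FPKM in jejunal against 1.18 FPKM in colonic tissue and *Cdh1*, E-cadherin, at 0.0827 FPKM in jejunal against 2.36 FPKM in colonic tissue, so that none of the defining epithelial markers was at 0. No library of jejunal mucosa was analysed, and the part of mucosal transcripts in these results was not tested. On the higher side *Fos*, *Car2* and *Reg3b* were 10-fold or more higher in mucosa, and without them 30 genes remained, 19 of them 4-fold higher in jejunal SMCs.

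**Figure D4:**
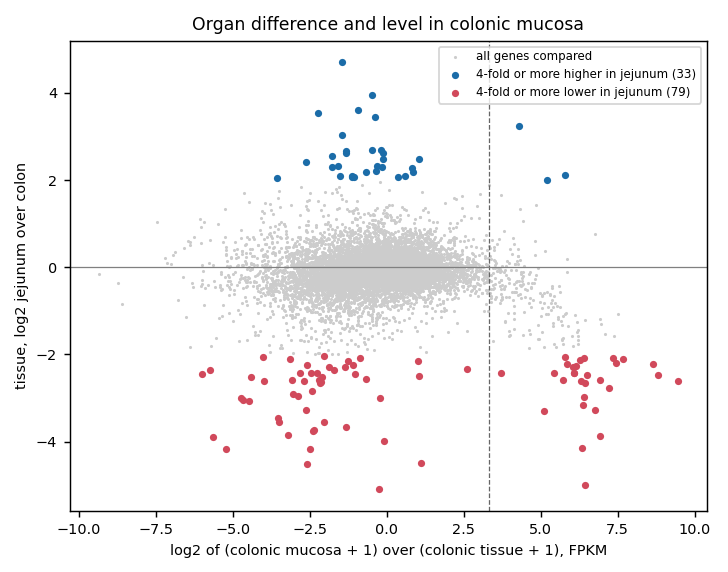
Log2 ratio of jejunal over colonic tissue against log2 of (colonic mucosa + 1) over (colonic tissue + 1) in FPKM, for all 12832 genes compared (grey), the 33 higher genes and the 79 lower genes. The dashed line marks 10-fold. To its right lie 29 of the lower genes and 3 of the higher ones.

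Lymphatic vessel genes were lower in jejunal tissue, and colonic tissue held more of the 4 called ones than each sorted colonic library did. *Prox1*, the transcription factor of lymphatic endothelium, was at 0.632 FPKM in jejunal tissue, against 11.3 FPKM in colonic tissue. *Flt4*, the VEGF-C and VEGF-D receptor, was at 1.56 FPKM in jejunal against 15.1 FPKM in colonic tissue, *Lyve1*, a hyaluronan receptor, at 3.68 FPKM in jejunal against 27.1 FPKM in colonic tissue, and *Reln*, reelin, at 0.459 FPKM in jejunal against 7.98 FPKM in colonic tissue. The 4 genes were 4-fold lower in jejunum out of 5 compared, where 0.616% of all genes were. The fifth was *Pdpn*, at 14.7 FPKM in jejunal against 18.1 FPKM in colonic tissue, and the median of the 5 was −2.62. *Lyve1*, *Flt4* and *Reln* were at 1.11, 0.72 and 0.154 FPKM in colonic SMCs, and *Prox1* at 5.82 FPKM. In the jejunum sorted libraries could exceed tissue, with 2.38 FPKM of *Prox1* and 7.28 FPKM of *Lyve1* in jejunal ICC, and 2.96 FPKM of *Flt4* and 1.24 FPKM of *Reln* in the library labelled jejunal PDGFRα+ cells. The chemokine CCL21 of lymphatic vessels was listed under 4 near-identical genes, of which *Gm1987* had 4.78 FPKM in jejunal against 131 FPKM in colonic tissue and *Ccl21c* 1.68 FPKM in jejunal against 47.4 FPKM in colonic tissue. The other two were *Gm10591* at 0.841 FPKM in jejunal against 23.9 FPKM in colonic tissue and *Gm13304* at 0.841 FPKM in jejunal against 23.5 FPKM in colonic tissue. How reads divide among these copies is uncertain, and the 4 went the same way. *Mmrn1*, a vessel protein, was at 1.63 FPKM in jejunal against 24.6 FPKM in colonic tissue. The growth factor of the opposite sign, *Figf*, is given among the higher genes.

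Blood vessel and stromal genes were lower in jejunum too, by less. *Cldn5*, the tight junction protein of endothelium, was at 2.6 FPKM in jejunal tissue, against 18.3 FPKM in colonic tissue, *Pecam1* at 10.4 FPKM in jejunal against 21.2 FPKM in colonic tissue and *Vwf*, von Willebrand factor, at 3.75 FPKM in jejunal against 8.76 FPKM in colonic tissue. Of 14 endothelial genes, 13 were below 0, as were 57.8% of all genes compared, and 1 was 4-fold lower, with a median of −0.79. All 20 fibroblast matrix genes were below 0, beside that 57.8%, with 2 at 4-fold, 8 at 2-fold and a median of −0.89. Among all genes, 0.616% were 4-fold lower and 2.88% were 2-fold lower. *Pi16* was at 0.588 FPKM in jejunal against 6.47 FPKM in colonic tissue, *Mfap5*, a microfibril protein, at 5.13 FPKM in jejunal against 26.2 FPKM in colonic tissue, and *Eln*, elastin, at 52.5 FPKM in jejunal against 205 FPKM in colonic tissue. The fibrillar collagen genes *Col3a1* and *Col1a1* were at 746 FPKM in jejunal against 1505 FPKM in colonic tissue, and at 378 FPKM in jejunal against 701 FPKM in colonic tissue. *Col8a1*, a collagen of vessel walls, was at 3.68 FPKM in jejunal against 21.8 FPKM in colonic tissue, with 53.9 FPKM in colonic PDGFRα+ cells. The same library held *Ccl11*, eotaxin, at 141 FPKM and *Adh1*, an alcohol dehydrogenase, at 194 FPKM, and the tissue levels were 1.89 FPKM in jejunal against 16.2 FPKM in colonic tissue for *Ccl11* and 4.93 FPKM in jejunal against 30.7 FPKM in colonic tissue for *Adh1*. In ICC all 20 matrix genes were also lower in jejunum and in SMCs 17 were. Of the 14 endothelial genes, 10 were above 0 in SMCs and 9 in ICC, beside 67.3% and 39.2% of all genes.

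Nerve transcripts differed by kind. *Sst*, somatostatin, was at 17.8 FPKM in jejunal tissue, against 277 FPKM in colonic tissue, the largest ratio among transmitters (log2 −3.89). *Grp*, gastrin-releasing peptide, was at 9.91 FPKM in jejunal against 54.9 FPKM in colonic tissue and *Penk*, the enkephalin precursor, at 36.1 FPKM in jejunal against 128 FPKM in colonic tissue. *Nmu*, neuromedin U, was at 14.2 FPKM in jejunal against 45.8 FPKM in colonic tissue, *Vip* at 51.1 FPKM in jejunal against 115 FPKM in colonic tissue, *Tac1*, the substance P precursor, at 55.7 FPKM in jejunal against 119 FPKM in colonic tissue and *Nos1*, neuronal nitric oxide synthase, at 18.5 FPKM in jejunal against 42.7 FPKM in colonic tissue. Cholinergic genes were nearer to each other, *Slc5a7*, the choline transporter, at 12.2 FPKM in jejunal against 12.9 FPKM in colonic tissue and *Chat* at 2.09 FPKM in jejunal against 3.15 FPKM in colonic tissue. *Gal*, galanin, was at 135 FPKM in jejunal against 99.4 FPKM in colonic tissue and *Npy* at 10.2 FPKM in jejunal against 7.89 FPKM in colonic tissue. Of 21 transmitter and neuropeptide genes compared, none was 4-fold higher and 2 were 4-fold lower, beside 0.616% of all genes. At 2-fold 10 were lower, beside 2.88% of all genes, and the median was −0.68. Beside them 20 pan-neuronal genes had a median of −0.45, 19 of them below 0 against 57.8% of all genes, and 13 glial genes one of −0.54. In ICC 16 of the pan-neuronal and 10 of the glial genes were above 0, against 39.2% of all genes. In SMCs 5 and 4 were, against 67.3%. *Uchl1* was at 119 FPKM in jejunal against 162 FPKM in colonic tissue, and *Nefl*, a neurofilament, at 7.08 FPKM in jejunal against 24.6 FPKM in colonic tissue.

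Some lists ran higher in jejunum as a whole. All 54 respiratory chain genes of the list were above 0 in tissue, as were 42.2% of all genes compared, with log2 ratios from 0.28 to 1.01 and a median of 0.67, where the median of all genes was −0.05. *Cox7a2*, a subunit of cytochrome oxidase, was at 246 FPKM in jejunal against 121 FPKM in colonic tissue. *Atp5b*, an ATP synthase subunit outside the list, was at 843 FPKM in jejunal against 452 FPKM in colonic tissue. All 54 were above 0 in the SMC pair and in the ICC pair too, with medians of 0.64 and 1.06, and those of all genes were 0.11 and −0.11. Immediate early genes were above 0 in 11 of 12, beside 42.2% of all genes in tissue, with a median of 0.94. *Fos*, a transcription factor induced within minutes of a stimulus, was at 95.2 FPKM in jejunal tissue, against 9.24 FPKM in colonic tissue. SMCs and ICC held more of it than tissue, 326 FPKM in jejunal against 141 FPKM in colonic SMCs and 230.3 FPKM in jejunal against 248 FPKM in colonic ICC, while the PDGFRα+ pair lay the other way, with 51.1 FPKM in the jejunal library, less than in jejunal tissue, and 141 FPKM in the colonic one. *Junb*, its partner, was at 28.1 FPKM in jejunal against 6.88 FPKM in colonic tissue. Mesothelial genes were above 0 in 8 of 9, beside that 42.2%, with a median of 0.70. *Upk3b* was at 126 FPKM in jejunal against 60.8 FPKM in colonic tissue and *Slpi*, a protease inhibitor, at 156 FPKM in jejunal against 35.9 FPKM in colonic tissue, and neither exceeded 16.4 FPKM in sorted SMCs or ICC. The library labelled jejunal PDGFRα+ cells had 369 FPKM of *Slpi*.

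**Figure D5:**
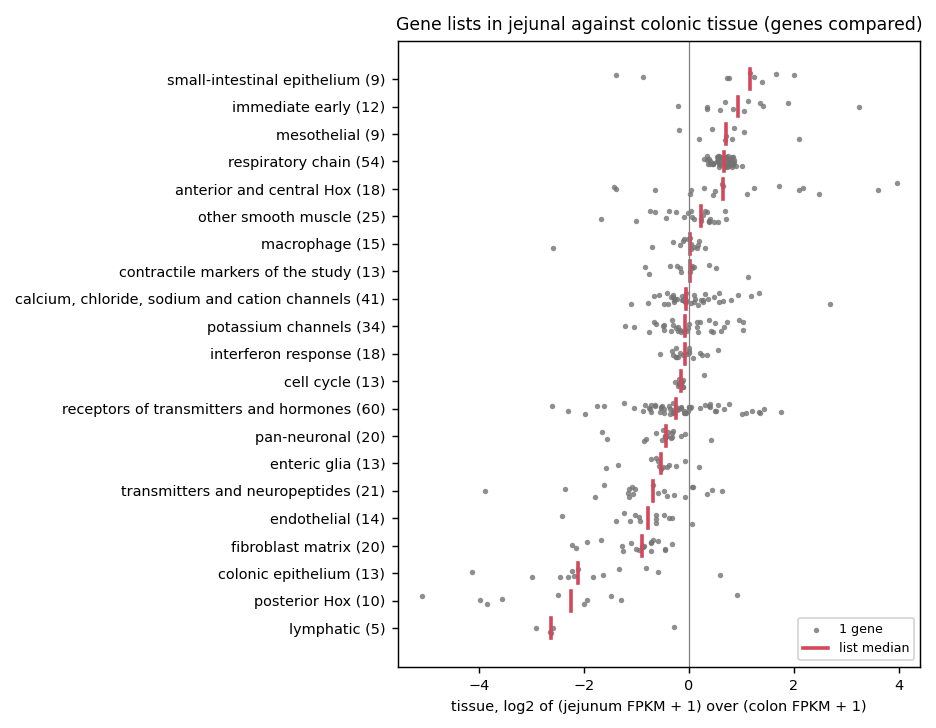
Log2 ratio of jejunal over colonic tissue for the compared members of 21 gene lists, 1 point a gene, with the list median as a bar and the number compared in brackets. Lists are ordered by median, from small-intestinal epithelium at 1.16 to lymphatic genes at −2.62. Respiratory chain genes lie above 0 throughout and fibroblast matrix genes below 0.

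Several lists were near the median of all genes. Macrophage genes had a median of 0.02 (−0.00456 with the jejunal library scaled to the colonic total), with 14 of 15 within 2-fold and *Lyve1*, which lymphatic vessels share, as the exception. Interferon response genes had a median of −0.08 and cell cycle genes one of −0.16, and none of either list reached 2-fold. In the SMC pair, however, 17 of the 18 interferon response genes were above 0, with a median of 1.25 where that of all genes was 0.11. Their median in the ICC pair was −0.18. Retinoic acid genes had a median of 0.03, with *Aldh1a2*, which makes retinoic acid, at 56.8 FPKM in jejunal against 34.8 FPKM in colonic tissue and at 110.5 FPKM in jejunal against 2.73 FPKM in colonic ICC. In SMCs it lay the other way, with 13.8 FPKM in jejunal against 44.7 FPKM in colonic SMCs. Wnt ligands and antagonists had a median of −0.21, with *Sfrp2* at 2.91 FPKM in jejunal against 15.8 FPKM in colonic tissue and *Rspo3*, an enhancer of Wnt signals, at 20.2 FPKM in jejunal against 7 FPKM in colonic tissue.

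Promoters of called genes were searched for 3 motifs, because the study turned on serum response factor, which binds the CArG box of actin genes, and because Hox factors led the differences. The windows run from 250 bases before to 50 bases after each start in RefSeq, build GRCm38.p6, and matched 21 higher genes and 51 lower ones. The CArG box, CC followed by 6 A or T and GG, was in 1.63% of all 32851 windows, in 0 of 25 windows of higher genes and in 1 of 61 windows of lower genes. Only exact matches near the start were counted, whereas the study searched the whole genome and allowed 1 deviating base. Of 11 windows of its contractile markers, 1 held the exact box. Few matches thus do not show that the boxes of the study are absent. Both strands were searched, and no window of the called genes held more than 1 of the 3 motifs. TTTATGG, a sequence of posterior Hox type, was in 2.75% of all windows, 1 of 25 and 3 of 61. TAATTA, a homeodomain core, was in 5.29% of all windows, 0 of 25 and 2 of 61. Shown are the gene with the largest ratio on the higher side, *Kcnip2* at chr19:45816014-45816313, and 2 lower genes with a motif, *Actc1* at chr2:114052826-114053125 with the CArG box and *Col8a1* at chr16:57754688-57754987 with TTTATGG read on the other strand, all on the minus strand and printed 5′ to 3′. Capitals mark the motif, and *Kcnip2* has none of the 3.
Kcnip2: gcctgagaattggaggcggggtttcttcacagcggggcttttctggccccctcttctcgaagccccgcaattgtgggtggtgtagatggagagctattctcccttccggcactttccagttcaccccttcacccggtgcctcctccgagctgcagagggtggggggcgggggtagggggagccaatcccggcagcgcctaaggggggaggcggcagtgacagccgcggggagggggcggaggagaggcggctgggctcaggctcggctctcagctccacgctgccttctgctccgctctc
Actc1: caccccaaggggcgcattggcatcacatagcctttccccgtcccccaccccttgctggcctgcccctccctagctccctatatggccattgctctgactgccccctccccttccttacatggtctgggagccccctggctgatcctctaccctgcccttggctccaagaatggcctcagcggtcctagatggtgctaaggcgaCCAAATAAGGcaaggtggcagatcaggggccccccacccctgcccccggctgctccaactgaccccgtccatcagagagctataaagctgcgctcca
Col8a1: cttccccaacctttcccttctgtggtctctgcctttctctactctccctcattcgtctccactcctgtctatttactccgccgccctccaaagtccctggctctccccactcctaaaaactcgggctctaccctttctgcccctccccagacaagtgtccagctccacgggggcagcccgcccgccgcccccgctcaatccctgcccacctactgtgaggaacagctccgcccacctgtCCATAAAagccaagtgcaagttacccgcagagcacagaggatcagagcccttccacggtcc

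The CArG box of *Actc1* begins 47 bases before the start, and the match of *Col8a1* begins 11 bases before it. *Actc1* was highest in colonic SMCs, at 29.2 FPKM, and *Col8a1* in colonic PDGFRα+ cells. A match is a description of the letters in the window and shows no binding.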

How the data were processed

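RNA was extracted with mirVana reagents and libraries were made with a TruSeq RNA kit. Per the labels and the submitters' processing notes, reads were aligned with TopHat 1.4.1 to mouse build mm9 and transcripts were assembled and quantified with Cufflinks 2.0.2 and Cuffdiff. The authors deposited FPKM per transcript variant, with no counts, in 3 tables made separately, so a level set across organs rests on 2 tables. Each lists the variants at 0.025 FPKM or more in at least 1 of its libraries, and an unlisted variant was taken as 0. The jejunal and colonic tables held 70143 and 68502 variants.

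Variants under 0.025 FPKM were set to 0 and summed by gene symbol with Python 3.11.15, numpy 2.4.6 and pandas 2.3.3. Figures were drawn with matplotlib 3.10.9. Ratios are log2 with a pseudocount of 1 FPKM, which understates the change of low genes. A gene under 1 FPKM in 1 tissue was compared only through the other tissue, which fixes the sign of its ratio. The calculation was tested on simulated data. The number of reads behind each value is unknown, so no counting interval is given. With 1 library a side no test was made, and groups follow the labels.

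The members and the 38 gene lists were chosen with earlier results of these data known. Named genes are the 15 largest ratios each way at 10 FPKM or more, the 10 largest FPKM differences each way, up to 4 members per list, list members at 4-fold and the markers of the study. Other named genes were chosen after their values were seen. mm9 positions come from the GENCODE annotation of build NCBIM37, which matched 110 of 112 called genes, and promoters from RefSeq. Alternatives changed the low cutoff, pseudocount, scaling, filter, variants summed, fold threshold and sorted libraries. A value was taken as moved at 1.5 times or more. Some genes are not reported here.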

Additional observations from a re-analysis of the deposited data

Results flagged for a closer look

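In 16 of the 79 genes lower in jejunal tissue, the library labelled jejunal PDGFRα+ cells lay 4-fold or more above the colonic PDGFRα+ library, opposite to the tissues. Of all genes compared, 4.92% were 4-fold or more higher in the jejunal library of that pair. These differences were not tested, with 1 library a side. That jejunal library went against its label in *Pdgfra*, at 0.597 times jejunal tissue, while *Kcnn3* was at 0.901 times and *P2ry1* at 1.96 times. Most of the 16 belong to the mucosal group. The goblet cell genes *Tff3*, *Zg16*, *Spink4* and *Fcgbp* had log2 ratios in this pair of 4.29, 3.98, 3.94 and 2.87. *Tff3* was at 36.5 FPKM in the jejunal and 0.918 FPKM in the colonic library, where tissue had 1.52 FPKM in jejunal against 11.4 FPKM in colonic tissue. The acute phase gene *Saa1* was at 3.30, and the epithelial genes *Muc13*, *Dmbt1*, *Sprr2a1*, *Epcam*, *Spink3*, *2210415F13Rik*, *Pigr* and *Cldn7* were at 3.15, 3.14, 3.12, 3.11, 2.83, 2.59, 2.12 and 2.12. The neuropeptide genes *Sst* and *Grp* were at 2.47 and 2.46, with *Sst* at 229 FPKM in the jejunal and 40.5 FPKM in the colonic library. *Igfbp2* was at 2.22. *Uchl1*, a neuronal marker, was at 219 FPKM in the jejunal and 20.6 FPKM in the colonic library, and *Reg3b* was at 548 FPKM in the jejunal and 0.905 FPKM in the colonic one. Their part in these values was not tested.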

How the results depend on the processing

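No paired analysis was possible because each organ has 1 tissue library. The counts of genes 4-fold higher and lower in jejunal tissue, 33 and 79, were 52 and 135 with a cutoff of 1 FPKM, 67 and 200 with a pseudocount of 0.1 FPKM, 6 and 7 with a pseudocount of 10 FPKM, 50 and 155 in TPM, and 25 and 46 with a filter of 10 FPKM. TPM raises every value here while the pseudocount and filter stay, and 14303 genes were then compared. With the jejunal library scaled to the colonic FPKM total, an alternative chosen after seeing the data, the counts were 32 and 80. They were 176 and 369 at 2-fold and 7 and 24 at 8-fold. Without genes 10-fold higher in colonic mucosa, an alternative chosen after seeing the data, they were 30 and 50. With no cutoff they were 32 and 79, with a cutoff of 0.1 FPKM 33 and 82, with median ratio scaling or no filter 33 and 79, and with known variants alone 23 and 62. Median ratio scaling kept all 33 and all 79 genes, and known variants alone kept 22 and 59. *Pde4c*, *Casq2*, *Gdf7*, *Six2*, *Hoxd9* and *Hoxd10* were among 10 called genes that known variants alone left out. None of 1181 gene values changed sign, and 249 moved by 1.5 times or more, 104 of them with the pseudocount of 10 FPKM. List medians near 0 changed sign between settings, among them those of striated muscle, macrophage and the channels. The median of all genes lay between −0.09 and 0.02. Without the mucosal genes colonic ICC was the highest sorted library of the muscle layer for 19 lower genes, against 43 with them. Colonic tissue exceeded every such library in 24, against 52. Tissue exceeded every sorted library by 2-fold in 1 higher gene, and in 2 without the PDGFRα+ libraries. The other counts by highest library, counts in the sorted pairs and the number of genes with shifted variant shares stayed within 1.5 times under their alternatives. The number of reads behind each value is unknown, so low values carry an error that is not given.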

Other observations

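Genes high in colonic mucosa also differed between the tissues beyond the called ones. Of 120 genes at 100 FPKM or more in colonic mucosa and 10-fold or more above colonic tissue, 105 were lower and 15 higher in jejunal tissue. Of all genes compared, 57.8% were below 0. The median log2 ratio of the 120 genes was −1.21, and the part of mucosa in their tissue levels was not tested. The summed level of these genes was 536.5 FPKM in jejunal tissue and 911 FPKM in colonic tissue, or 0.859% and 1.46% of the 62483 FPKM in colonic mucosa. The 120 genes were chosen by their level in colonic mucosa, and jejunal mucosa was not analysed here.

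Of all genes compared, 57.8% were below 0 and 0.616% were 4-fold lower. Adipocyte genes had a median log2 ratio of −0.83 over 12 genes compared, 9 of them below 0. Acute phase and complement genes had one of −0.27 over 13, with *Saa1* and *Lbp* 4-fold lower. Antigen presentation genes had a median of 0.09 over 14, none of them 2-fold apart. Collagen genes by symbol had a median of −0.86 over 33, with 28 below 0 and *Col8a1* 4-fold lower. Connexins had a median of −0.28 over 7 genes, and PDGFRα+ cell genes one of −0.28 over 4. Of 22 pancreatic acinar genes 3 were compared, with *Sycn* 4-fold lower. Lymphocyte and erythroid genes had 2 genes compared each, with medians of −0.17 and −0.65. None of 10 mast cell genes reached 1 FPKM in a tissue.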
